A study of Mus musculus with 44 samples.

Results

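The 8 genes described here are the Hedgehog ligands Shh and Ihh, their receptor Ptch1, the inhibitor Hhip, the signal transducer Smo and the transcription factors Gli1, Gli2 and Gli3. The rule took them by gene name, although earlier results of these data were known when they were chosen, from 31484 genes whose transcript counts were summed, and all 8 passed the filter on low counts that left 14901 genes for testing. RNA was sequenced from the gastric corpus of BalbC mice aged 13 months. H+/K+ATPase beta subunit knockout mice (KO), which lack Atp4b in the germline, and wild-type mice (WT) received either netazepide (NTZ), an antagonist of the gastrin receptor that the labels call yf, or its vehicle polyethylene glycol (PEG), and the methods of the study describe female mice. There were 13 KO/PEG, 11 KO/NTZ, 11 WT/PEG and 9 WT/NTZ libraries. Netazepide was dissolved in PEG, so mice of every group received PEG.

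Hedgehog ligands are secreted proteins that bind Patched receptors on neighbouring cells. An unoccupied Patched receptor keeps Smoothened (Smo) silent, and ligand binding lifts this block so that Gli factors act on their targets, of which Gli1, Ptch1 and Hhip are the usual readouts. In the adult corpus Shh is best known as a product of acid-secreting parietal cells and Ihh as a product of surface pit cells, while Ptch1, Gli1 and Hhip are mainly found in the stroma that receives the signal.

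Library totals ranged from 6065084 to 21945124 estimated counts, and 3 counts in the shallowest library correspond to 0.495 CPM, a count scaled to the library total, which is the scale used below unless another is named. Atp4b, the deleted gene, had a median of 3858 CPM in WT/PEG and 5.72 CPM in KO/PEG libraries, with a log2 fold change of -9.17 ± 0.38 (SE) and an adjusted p of 5.67e-23, and no KO library overlapped the WT range. Parietal cell markers other than Gif summed to a median of 9087 CPM in WT/PEG libraries, as the corpus label says, and Gif, which in mice is a chief cell product, was set apart from them. The summed markers of squamous forestomach had a median of 1.07 CPM in WT/PEG libraries (range 0.640 to 324 CPM). In WT/NTZ libraries it was 552.7 CPM (range 0.464 to 2968 CPM). The medians were 21.6 CPM in KO/PEG (range 2.13 to 360 CPM) and 90.8 CPM in KO/NTZ libraries (range 20.8 to 507 CPM). The ranges overlapped, and 0 of the 6 markers were called in either netazepide comparison. Between genotypes, Krt14, Krt4 and Trp63 were called lower in KO/NTZ versus WT/NTZ, and Ivl was called higher in KO/PEG versus WT/PEG. More KO/PEG libraries were deposited than the methods count KO/PEG mice, and an animal number is shared by a pair of WT/PEG libraries and by 1 library of each KO group, so p-values measure the spread between libraries, which may in part be technical. All WT/PEG animals carry numbers of 100 or above, whereas 10 of 11 KO/NTZ animals carry numbers below 100.

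One property of the libraries runs through every genotype result below. The slope of log2 CPM on log2 transcript length across genes lay between -0.323 and 0.216 in KO/PEG and between -0.285 and -0.0181 in KO/NTZ libraries. WT/PEG libraries had slopes of 0.173 to 0.401, and WT/NTZ libraries had slopes of 0.128 to 0.319. KO libraries thus held relatively more counts from short transcripts. In KO/PEG versus WT/PEG, the median log2 fold change over all genes was 0.59 for transcripts under 2000 bases, 0.06 from 2000 to 3000 bases, -0.30 from 3000 to 5000 bases and -0.66 at 5000 bases or more. Among the longest genes 74.3% were called lower and 7.91% higher. The members ranged from 2408 bases for Ihh to 8159 bases for Gli3, so the genotype values of the members are given as counted and again after the length trend of each library was removed. Whether the length trend is technical or biological was not tested.

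**Figure D1:**
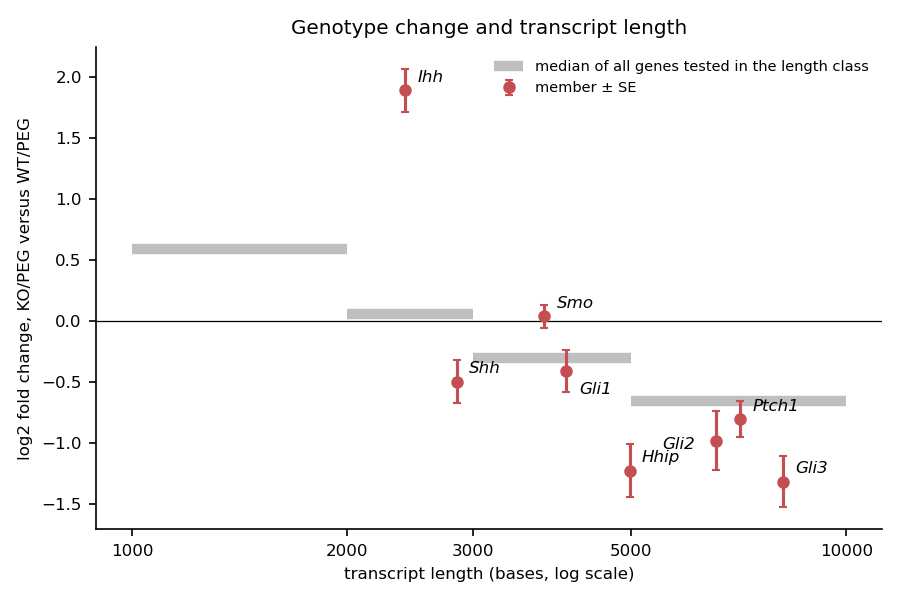
Log2 fold change of each member in KO/PEG versus WT/PEG (red points, ± SE) against its mean transcript length in bases on a log axis, with grey bars for the median of all tested genes in 4 length classes; the lowest class holds every gene under 2000 bases and the highest every gene of 5000 bases or more. Ihh, at 1.89, lies far above the bar of its class, whereas Gli1 and Ptch1, at -0.41 and -0.81, lie close to theirs.

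Of the 8 members, 7 passed the test in KO/PEG versus WT/PEG, where 74.7% of all tested genes were called. Ihh rose and Shh, Ptch1, Hhip, Gli1, Gli2 and Gli3 fell, with a median log2 fold change of -0.65 over the members against -0.0029 over all genes. With the length trend removed 5 members passed, Ihh and Smo higher and Shh, Hhip and Gli3 lower, and with the slope as a covariate Ihh alone passed. Of all 14901 tested genes, 5340 were called higher and 4720 lower with the trend removed. With the slope as a covariate these counts were 2430 and 2451. No member passed the test for netazepide in either genotype as counted. The plot of CPM by library shows the spread behind these values.

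**Figure D2:**
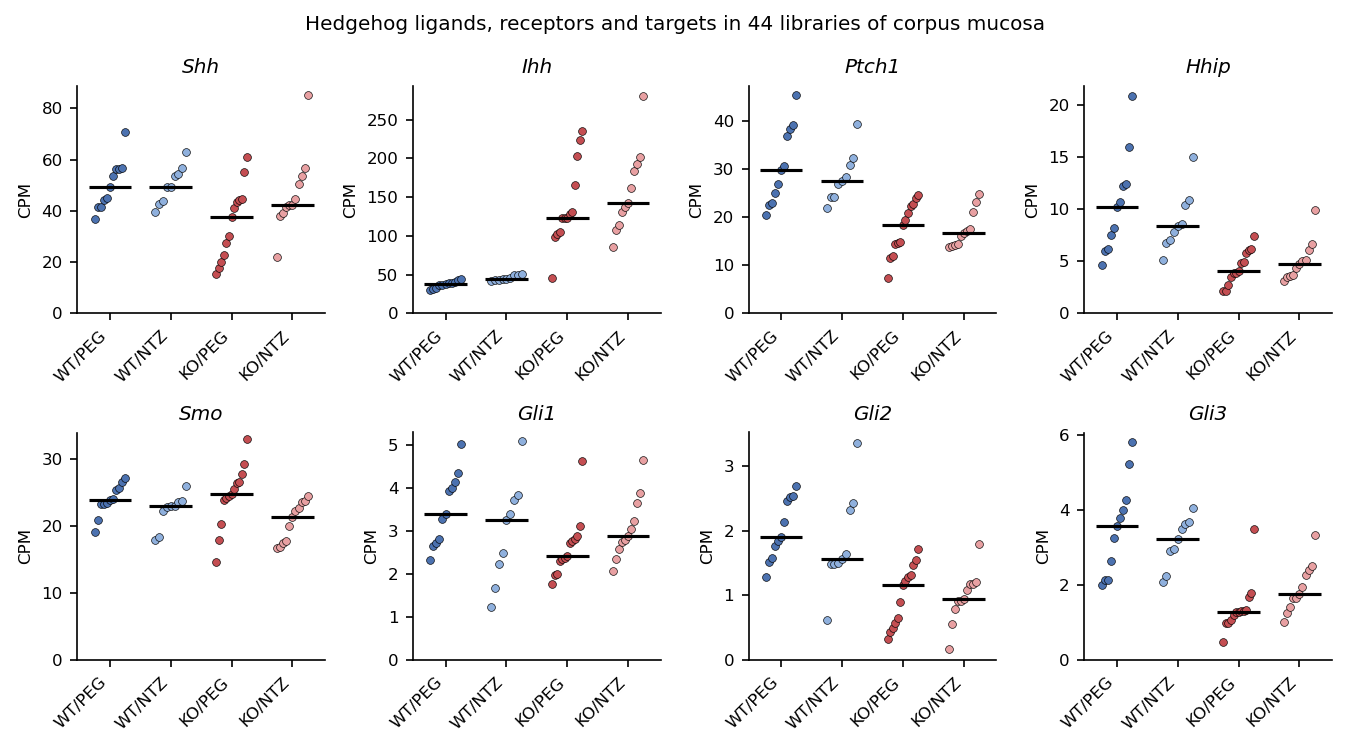
CPM of each member on linear axes that start at 0, with 1 point per library ordered by value within its group and a black line at the group median (11, 9, 13 and 11 libraries from left to right). The 24 KO libraries stand above the WT libraries for Ihh with 1 exception, and 16 of them lie below all WT libraries for Ptch1 and 19 for Gli3.

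Ihh, the Hedgehog ligand of the pit cell compartment, was the member that rose with the knockout. It is encoded on chromosome 1 (GRCm38, 74945315-74951672, minus strand; ENSMUSG00000006538). In WT/PEG libraries its lowest, median and highest levels were 29.9, 38.0 and 44.6 CPM, and in WT/NTZ libraries 42.0, 44.5 and 51.2 CPM. In KO/PEG libraries they were 45.6, 123.7 and 235.6 CPM, and in KO/NTZ libraries 85.2, 142.1 and 280.9 CPM. All 13 KO/PEG libraries lay above all WT/PEG libraries, and 23 of 24 KO libraries lay above all 20 WT libraries. The rise in KO/PEG was 3.71-fold with a 95% interval of 2.92 to 4.70 (log2 fold change 1.89 ± 0.17, adjusted p = 3.12e-12), and under netazepide KO/NTZ exceeded WT/NTZ by 3.44-fold (log2 fold change 1.78 ± 0.19, adjusted p = 2.54e-10).

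The Ihh values barely moved when the length trend was removed, with log2 fold changes of 1.84 in KO/PEG versus WT/PEG and 1.74 in KO/NTZ versus WT/NTZ. Entering each library's length slope as a covariate left 0.61 ± 0.24 (adjusted p = 0.0428) and 0.72 ± 0.22 (adjusted p = 0.0160). In that fit slope and genotype largely overlap, since a single KO/PEG library, with a slope of 0.216, lay in the WT range of slopes. Without that library the value was 1.97 as counted and 0.89 with the slope as a covariate (adjusted p = 0.00772). Among animals numbered 100 or above alone, the KO/PEG difference was 2.06. The ordering of the group medians was KO/NTZ, KO/PEG, WT/NTZ and WT/PEG. The KO groups did not differ beyond their spread (fold 1.14, interval 0.907 to 1.42, adjusted p = 0.476), and neither did the WT groups (fold 1.22, interval 0.954 to 1.57, adjusted p = 0.847), although all 9 WT/NTZ libraries lay above the WT/PEG median.

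Shh, on chromosome 5 (GRCm38, 28456815-28467256, minus strand; ENSMUSG00000002633), moved the other way. Its lowest, median and highest levels were 36.7, 49.2 and 70.9 CPM in WT/PEG and 39.6, 49.4 and 62.8 CPM in WT/NTZ libraries. They were 15.2, 37.5 and 60.9 CPM in KO/PEG and 22.1, 42.5 and 85.2 CPM in KO/NTZ libraries. The groups overlapped widely, and 6 of 13 KO/PEG libraries lay below all WT/PEG libraries. Shh fell in KO/PEG to 0.708 of the WT/PEG level, with an interval of 0.558 to 0.898 (log2 fold change -0.50 ± 0.18, adjusted p = 0.0103). Removing the length trend gave -0.42 (adjusted p = 0.0278), while the slope as a covariate gave 0.08 (adjusted p = 0.877). Over all alternatives this log2 fold change ran from -0.82 to 0.59.

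In KO/NTZ versus WT/NTZ the Shh log2 fold change was -0.09 ± 0.19 (adjusted p = 0.674), and -0.01 with the length trend removed. Its response to netazepide in KO mice was 0.41 ± 0.18, an interval of 1.04 to 1.68 in fold, and did not pass the test over all genes (adjusted p = 0.148). Shh in KO/PEG libraries differed by animal number, with a median of 27.5 CPM in the 7 animals numbered 100 or above and 44.4 CPM in the 6 below 100. Comparing only KO animals numbered below 100, the netazepide value was 0.05 (adjusted p = 0.894). The Shh transcript also shares 446 of its 2847 exon bases with the opposite-strand gene 9530036O11Rik and 361 with Gm26894. The sources do not say that counting used strand, so antisense reads cannot be told apart there.

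On a scale per transcript length, the ligands were near parity in WT mice and far apart in KO mice. The ratio of Ihh to Shh in TPM, which divides counts by transcript length and scales them to the library, had a lowest, median and highest value of 0.669, 0.914 and 1.15 in WT/PEG libraries and 0.936, 1.08 and 1.43 in WT/NTZ libraries. It was 2.44, 4.03 and 12.1 in KO/PEG and 2.26, 4.06 and 7.90 in KO/NTZ libraries. No KO library overlapped a WT library in this ratio. The mean lengths of Ihh and Shh are 2408 and 2847 bases. The ratio was not adjusted for the length slopes of the libraries. With the slope as a covariate the KO/PEG log2 fold change of Ihh was smaller and that of Shh changed sign, as given above. Without the KO/PEG library whose slope lies in the WT range, that fit gave 0.59 for Shh. In these fits the changes of the ligands lay closer together than as counted.

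Markers of the source cells moved as well. Of 8 genes listed as parietal cell markers, Gif among them, 7 fell in KO/PEG versus WT/PEG, and without Gif their summed median went from 9087 to 3965 CPM (ranges 7055 to 10410 and 2257 to 7642 CPM). With the length trend removed 7 of the 8 fell, and with the slope as a covariate 2 of the 8 fell and 1 rose. Of 4 surface pit cell markers 3 fell, with summed medians of 98576 and 47693 CPM (ranges 84950 to 117506 and 14470 to 105560 CPM). All 4 pit cell markers were called lower with the length trend removed, and 3 with the slope as a covariate. All 4 mucous neck and SPEM markers (SPEM is spasmolytic polypeptide-expressing metaplasia) rose, from summed medians of 2146 to 25884 CPM. Of these, Tff2 lost its call with the slope as a covariate. Of the parietal and pit cell markers, Aqp4 alone was at 0 in any library, in 2 of 11 KO/NTZ libraries. In bulk tissue, fewer cells of a type and less RNA per cell cannot be told apart, and the part of these cell types in the ligand results was not tested.

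The receptor Ptch1 lies on chromosome 13 (GRCm38, 63508328-63573598, minus strand; ENSMUSG00000021466). Its lowest, median and highest levels were 20.5, 29.8 and 45.3 CPM in WT/PEG and 21.8, 27.4 and 39.3 CPM in WT/NTZ libraries. The same values were 7.44, 18.3 and 24.7 CPM in KO/PEG and 13.7, 16.6 and 24.7 CPM in KO/NTZ libraries. All 13 KO/PEG libraries lay below the WT/PEG median and 8 lay below the whole WT/PEG range. Ptch1 fell by 0.81 ± 0.15 on the log2 scale in KO/PEG (adjusted p = 7.82e-06) and by 0.69 ± 0.16 in KO/NTZ versus WT/NTZ (adjusted p = 0.000292). With the length trend removed these values were -0.11 (adjusted p = 0.371) and -0.03 (adjusted p = 0.817), so the Ptch1 calls rest on the counts as they stand. The netazepide fold of Ptch1 in KO mice had an interval of 0.820 to 1.22.

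Hhip, which binds Hedgehog ligands at the cell surface and holds them back, lies on chromosome 8 (GRCm38, 79965851-80058006, minus strand; ENSMUSG00000064325). WT/PEG libraries had a lowest, median and highest Hhip level of 4.64, 10.2 and 20.9 CPM, and WT/NTZ libraries 5.16, 8.36 and 14.98 CPM. These levels were 2.10, 4.04 and 7.38 CPM in KO/PEG and 3.11, 4.75 and 9.88 CPM in KO/NTZ libraries. Every KO/PEG library lay below the WT/PEG median, and 7 lay below all WT/PEG libraries. Hhip fell in KO/PEG by 1.23 ± 0.22 on the log2 scale (adjusted p = 3.65e-06) and in KO/NTZ versus WT/NTZ by 0.79 ± 0.24 (adjusted p = 0.00341). Removing the length trend gave -0.69 (adjusted p = 0.00208) and -0.30 (adjusted p = 0.225), so in that fit the first call held and the second did not. The fit took 4971 bases for Hhip, a mean weighted over transcripts of 9074 and 1173 bases. Neither transcript was adjusted at its own length.

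The counts of Hhip came from a pair of annotated transcripts that behaved differently. Hhip-201 is the protein coding transcript of 9074 bases and 13 exons, and Hhip-202 is an annotated processed transcript of 1173 bases and 6 exons. The first 595 bases of Hhip-202 occur unchanged within Hhip-201, and 576 of its last 578 bases lie at the 3' end of Hhip-201. That stretch of 595 bases ends at base 2529 of Hhip-201, so Hhip-202 lacks the start of Hhip-201. After it, Hhip-202 is spliced to its last exon at a junction that Hhip-201 lacks, while Hhip-201 reads on within its own last exon. The GENCODE transcript sequences at this point are shown on the minus strand, with the bases after upstream base 79972398 in capitals.
Hhip-202: gagtgaccagggcagCCCCCCATGTATTCA
Hhip-201: gagtgaccagggcagGTATCCTTGATCAGA
Hhip-201 had a lowest, median and highest level of 2.23, 7.07 and 14.8 CPM in WT/PEG and 0.324, 1.22 and 2.55 CPM in KO/PEG libraries, and it fell by 2.42 ± 0.32 on the log2 scale (adjusted p = 3.57e-08 over all transcripts tested). Hhip-202 stood at 2.41, 3.26 and 6.04 CPM in WT/PEG and 1.62, 3.18 and 4.97 CPM in KO/PEG libraries, a log2 fold change of -0.25 ± 0.21 (adjusted p = 0.321). Its share of the Hhip counts was 69.5% in KO/PEG and 77.2% in KO/NTZ libraries, against 33.5% in WT/PEG and 40.3% in WT/NTZ libraries. Reads of Hhip-202 away from that junction also match Hhip-201, and how far the transcript split follows the length trend was not tested.

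**Figure D3:**
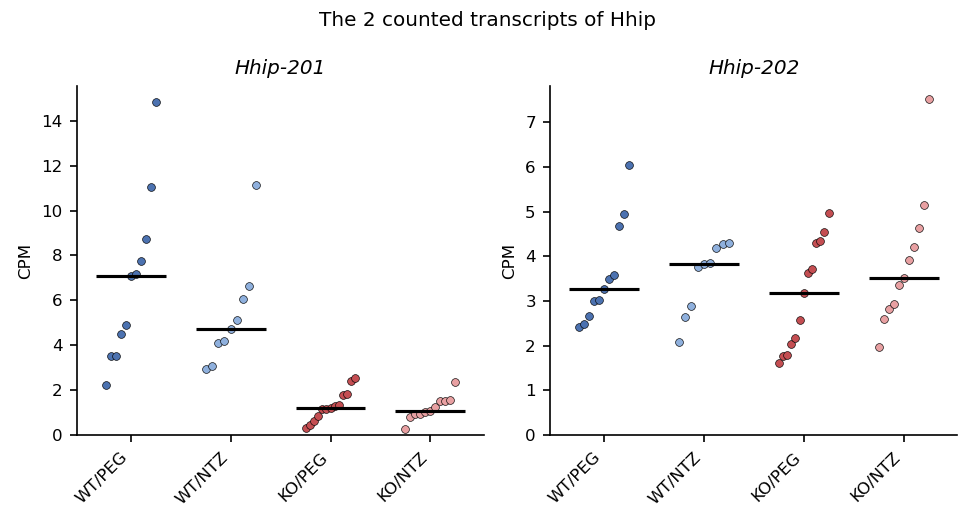
CPM per library of the protein coding transcript Hhip-201 (9074 bases, left) and the short transcript Hhip-202 (1173 bases, right) on linear axes that start at 0, with black lines at group medians. Hhip-201 drops from a median of 7.07 in WT/PEG to 1.22 CPM in KO/PEG libraries, while the Hhip-202 groups overlap throughout.

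Smo, the membrane protein that passes the signal on, lies on chromosome 6 (GRCm38, 29735503-29761365, plus strand; ENSMUSG00000001761) and was the member that did not pass the test in KO/PEG versus WT/PEG. Lowest, median and highest Smo levels were 19.2, 23.8 and 27.3 CPM in WT/PEG and 17.8, 22.9 and 25.97 CPM in WT/NTZ libraries. In the KO groups they were 14.7, 24.8 and 33.1 CPM in KO/PEG and 16.7, 21.3 and 24.4 CPM in KO/NTZ libraries. The groups overlapped, and the KO/PEG versus WT/PEG log2 fold change was 0.04 ± 0.09 (interval 0.906 to 1.16 in fold, adjusted p = 0.728). With the length trend removed Smo passed the test, at 0.38 (adjusted p = 0.000212) in KO/PEG versus WT/PEG and 0.23 (adjusted p = 0.0331) in KO/NTZ versus WT/NTZ. All 11 KO/NTZ libraries lay below the KO/PEG median, yet the netazepide log2 fold change of -0.25 ± 0.09 did not pass the test (adjusted p = 0.0971), and it was -0.14 in KO animals numbered below 100.

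Summed over the transcripts of each gene, the Gli factors were the least abundant members. Per transcript length, Gli1 had a WT/PEG median of 0.857 TPM, Gli3 0.530 TPM and Gli2 0.442 TPM, against 18.8 TPM for Shh, 17.5 TPM for Ihh, 6.87 TPM for Smo, 4.54 TPM for Ptch1 and 4.003 TPM for Hhip. The Hhip value sums Hhip-201 and the shorter Hhip-202, at WT/PEG medians of 7.07 CPM over 9074 bases and 3.26 CPM over 1173 bases. Hhip-201 alone was not ranked against the Gli factors. Gli1, both an effector and a target of the pathway, lies on chromosome 10 (GRCm38, 127329882-127341974, minus strand; ENSMUSG00000025407). Gli1 had a lowest, median and highest level of 2.32, 3.395 and 5.02 CPM in WT/PEG and 1.23, 3.27 and 5.11 CPM in WT/NTZ libraries. The KO values were 1.78, 2.41 and 4.65 CPM in KO/PEG and 2.07, 2.88 and 4.66 CPM in KO/NTZ libraries. No KO library fell outside the range of all WT libraries. Gli1 fell in KO/PEG by 0.41 ± 0.17 on the log2 scale (adjusted p = 0.0275), a call lost without the filter on low counts (adjusted p = 0.0559), with protein coding transcripts only (adjusted p = 0.0751) and with the length trend removed, where the log2 fold change was -0.0040. In KO/NTZ versus WT/NTZ it was 0.05 ± 0.19 (adjusted p = 0.837), and 0.43 with the length trend removed (adjusted p = 0.0597).

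Gli2, the main activator of target genes, lies on chromosome 1 (GRCm38, 118834132-119053619, minus strand; ENSMUSG00000048402). Across WT/PEG libraries the lowest, median and highest levels were 1.28, 1.90 and 2.69 CPM, and across WT/NTZ libraries 0.615, 1.56 and 3.36 CPM. They were 0.329, 1.16 and 1.72 CPM in KO/PEG and 0.172, 0.945 and 1.79 CPM in KO/NTZ libraries, so the lowest values rest on very few counts. All 13 KO/PEG libraries lay below the WT/PEG median. Gli2 fell by 0.98 ± 0.24 on the log2 scale in KO/PEG (adjusted p = 0.000396) and by 0.86 ± 0.27 in KO/NTZ versus WT/NTZ (adjusted p = 0.00444). Neither call held with the length trend removed, at -0.37 (adjusted p = 0.148) and -0.25 (adjusted p = 0.392).

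Gli3, which mainly acts as a repressor when the pathway is off, lies on chromosome 13 (GRCm38, 15463235-15730026, plus strand; ENSMUSG00000021318). The lowest, median and highest Gli3 levels were 2.00, 3.58 and 5.81 CPM in WT/PEG and 2.09, 3.22 and 4.06 CPM in WT/NTZ libraries. For the KO groups they were 0.485, 1.28 and 3.51 CPM in KO/PEG and 1.01, 1.77 and 3.33 CPM in KO/NTZ libraries. Of the 13 KO/PEG libraries 12 lay below all WT/PEG libraries. Gli3 showed the lowest log2 fold change of the members in KO/PEG, -1.32 ± 0.21 (adjusted p = 5.04e-07), and was still called lower with the length trend removed, at -0.57 (adjusted p = 0.00635). In KO/NTZ versus WT/NTZ it fell by 0.72 ± 0.23 on the log2 scale (adjusted p = 0.00509), and removing the length trend brought this to -0.0065 (adjusted p = 0.979). Its netazepide value in KO mice was 0.43 ± 0.21 (adjusted p = 0.203), which passed the test only with the length trend removed (0.59, adjusted p = 0.0465) and was 0.11 in KO animals numbered below 100.

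**Figure D4:**
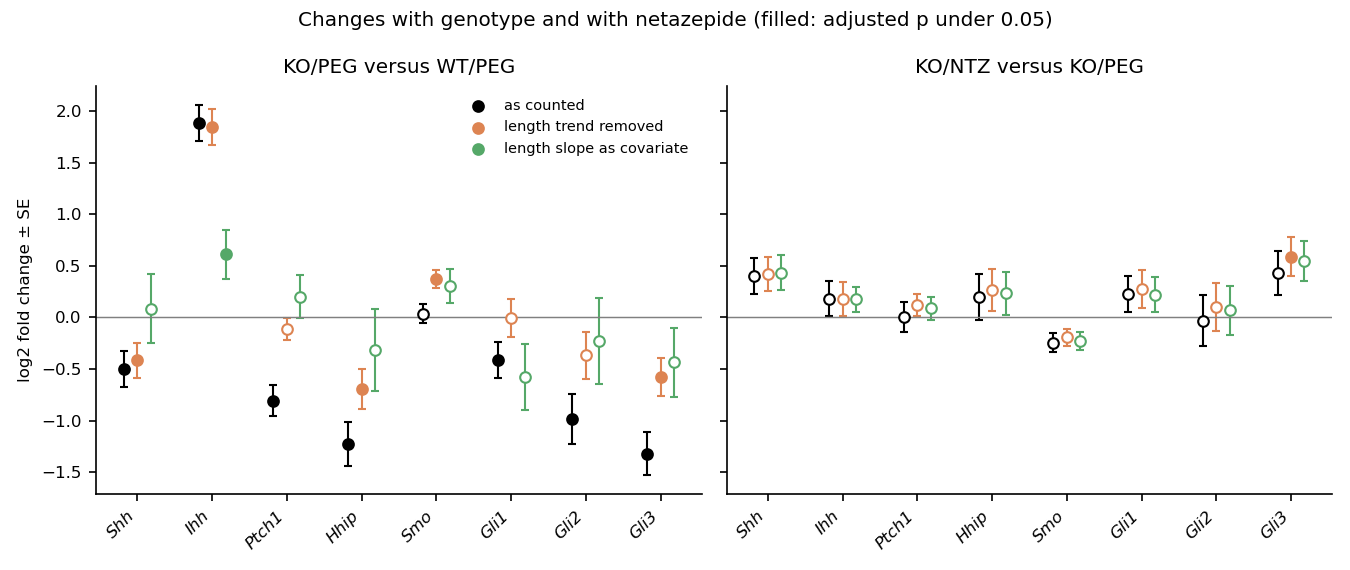
Log2 fold changes (± SE) of the 8 members for genotype (KO/PEG versus WT/PEG, left) and for netazepide in KO mice (KO/NTZ versus KO/PEG, right), as counted (black), with the length trend of each library removed (orange) and with its length slope as a covariate (green); filled points have an adjusted p under 0.05. Ihh is filled in all 3 fits on the left, and on the right Gli3 alone is filled, in 1 fit.

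Under netazepide, 5 of 8 members differed between genotypes in KO/NTZ versus WT/NTZ, where 72.4% of all tested genes were called: Ihh was higher and Ptch1, Hhip, Gli2 and Gli3 were lower. With the slope as a covariate, Ihh was the 1 member called in either genotype comparison. That fit called 1630 of all tested genes higher and 1514 lower in KO/NTZ versus WT/NTZ. In KO/NTZ versus KO/PEG none of the 8 members was called by edgeR, while 5.56% of all genes were, and Shh and Smo had an unadjusted p under 0.05. In WT/NTZ versus WT/PEG none was called either, against 1.03% of all genes, and none had an unadjusted p under 0.05. These shares moved with the fit, as given among the alternatives. The part of squamous tissue in the netazepide and genotype values was not tested. DESeq2 and limma also called 0 members in both netazepide comparisons. The difference of the netazepide effect between KO and WT was called for 0 members by edgeR, DESeq2 or limma, none had an unadjusted p under 0.05 in edgeR, and 0.96% of all genes were called. The values ran from -0.14 for Smo to 0.60 ± 0.31 for Gli3 (adjusted p = 0.460).

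Other genes of the pathway were taken from 4 lists, of which 42 of 46 genes were tested, and 8 rose and 20 fell in KO/PEG versus WT/PEG, where 37.5% of all tested genes were called higher and 37.2% lower. All 5 tested genes of the list of reception and co-receptors fell, with a median of -1.39 on the log2 scale, and Boc is listed at 0 in every library. Cdon, a co-receptor that helps ligands reach Ptch1, fell by 1.44 ± 0.12 on the log2 scale (adjusted p = 1.37e-13). Its lowest, median and highest levels went from 12.4, 14.4 and 19.4 CPM in WT/PEG to 3.79, 5.34 and 8.57 CPM in KO/PEG libraries, without overlap. Gpc3, a glypican that competes for ligand, and Mosmo, which lowers Smo at the membrane, each fell by 1.39. All 5 were still called lower with the length trend removed, with Cdon at -0.71, and Cdon alone with the slope as a covariate.

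Among 8 tested genes of ligand production and release, 3 rose and 4 fell. Lrp2, an endocytic receptor that takes up Shh, fell by 3.35 ± 0.51 on the log2 scale (adjusted p = 2.63e-07), with medians of 77.9 CPM in WT/PEG and 4.82 CPM in KO/PEG libraries. Scube2, a secreted aid to ligand release, fell by 1.34, and Hhat, the enzyme that attaches palmitate to the ligands, rose by 0.73 ± 0.14 (adjusted p = 9.39e-06). These 3 calls held with the length trend removed, and with the slope as a covariate that of Lrp2 alone. Dhh did not pass the filter. Among 18 relay genes 3 rose and 6 fell, led by the Smo kinase Grk2 at 0.96 ± 0.15, the kinase Gsk3b at -0.85 ± 0.14 and the arrestin Arrb2 at 0.79 ± 0.10. Removing the length trend left 6 relay genes higher and 3 lower. Gsk3b lost its call there (-0.11, adjusted p = 0.191), and Grk2 lost it with the slope as a covariate (-0.22).

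Of 11 tested Gli target genes 2 rose and 5 fell in KO/PEG. Tgfb2, a growth factor, fell by 1.07 ± 0.21 on the log2 scale, Sfrp1, a secreted Wnt inhibitor, fell by 1.01 ± 0.11 and Osr1, a mesenchymal transcription factor, fell by 0.92 ± 0.26. The 5 genes were also called lower with the length trend removed. Foxl1, a transcription factor of subepithelial cells, rose by 0.78 ± 0.23, and Mycn rose by 0.48 ± 0.22, a call lost with the length trend removed. With that trend removed Bcl2 and Ccnd1 were called higher as well, so that 3 of the 11 were higher and 5 lower. With the slope as a covariate, of these 7 genes Sfrp1 and Osr1 alone were called, and Bcl2 was called higher and Snai1 lower.

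**Figure D5:**
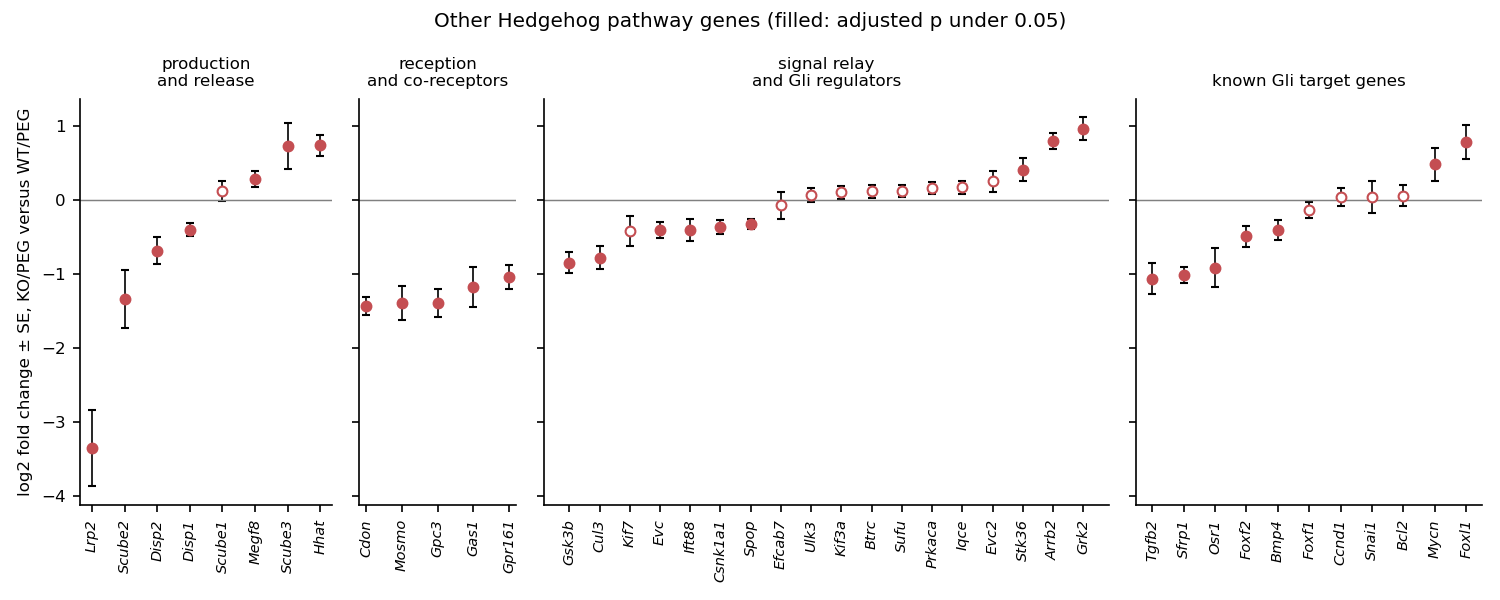
Log2 fold changes (± SE) in KO/PEG versus WT/PEG of the 42 tested genes of 4 Hedgehog pathway lists, sorted within each list, with filled points for an adjusted p under 0.05. All 5 genes of reception and co-receptors lie below 0, and Lrp2 has the lowest value, -3.35.

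As counted, 4 of these 42 genes were called in KO/NTZ versus KO/PEG, all higher, beside 2.97% of all tested genes called higher and 2.60% lower. With the length trend removed Cdon, Gas1, Evc and Kif7 were called higher too. With the slope as a covariate Cdon, Gas1, Evc and Grk2 were called higher and Cul3 lower. Of all 14901 tested genes, the fit with the trend removed called 661 higher and 604 lower, and that with the covariate 973 and 718. Sfrp1 had a lowest, median and highest level of 37.9, 51.2 and 61.7 CPM in WT/PEG, 17.2, 25.3 and 33.6 CPM in KO/PEG and 27.7, 35.8 and 51.7 CPM in KO/NTZ libraries. It rose by 0.52 ± 0.11 with netazepide in KO mice (adjusted p = 0.00303), and its netazepide effect differed between KO and WT by 0.66 ± 0.17 (adjusted p = 0.0376). Scube2 rose by 1.30 ± 0.39 (adjusted p = 0.0393), Osr1 by 0.88 ± 0.27 (adjusted p = 0.0381) and Gpc3 by 0.67 ± 0.19 (adjusted p = 0.0325). These 4 were called higher under both length adjustments as well. Their values in KO animals numbered below 100 alone are not given here. That fit called 24 of all genes higher and 77 lower, against 442 and 387 in the main fit. Scube2 had KO/PEG and KO/NTZ medians of 0.329 and 0.843 CPM, so its change rests on few counts.

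Markers of stromal cells moved beside the receiving genes. Of 7 smooth muscle markers 6 fell in KO/PEG versus WT/PEG, with summed levels of 2590 to 4403 CPM (median 3721) against 1138 to 3599 CPM (median 1860), and 4 rose with netazepide in KO mice (median 3737, range 2224 to 4918 CPM). With the slope as a covariate 2 of the 7 fell in KO/PEG. Of 6 fibroblast markers 2 fell in KO/PEG versus WT/PEG, Dcn and Lum, and Col1a1 and Col1a2 fell with netazepide in KO mice. With the length trend removed Col1a1, Col1a2, Pdgfra and Pdgfrb rose in KO/PEG while Dcn and Lum fell, and with the slope as a covariate 3 rose and 0 fell. Of 4 endothelial markers 2 rose and 2 fell, and of 4 tested leukocyte markers 3 rose. The part of these cell types in the values of Ptch1, Hhip, the Gli genes and Sfrp1 was not tested.

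Within groups, Gli1 was compared with Ptch1, Hhip, Shh and Ihh across libraries, 16 relations in all. Gli1 and Hhip had the highest values, with Pearson's r = 0.77 (permutation p = 0.00656, adjusted 0.0800) and Spearman's rho = 0.85 (permutation p = 0.00124, adjusted 0.0198) in 11 WT/PEG libraries. Without the 2 libraries farthest from the median of Gli1, r was 0.71 (permutation p = 0.0355, adjusted 0.568). In WT/NTZ libraries r was 0.79 (exact permutation p = 0.0100, adjusted 0.0800) and rho 0.80 (exact permutation p = 0.0138, adjusted 0.111), and r was 0.60 without the 2 farthest libraries. In KO/PEG and KO/NTZ libraries r was 0.43 and 0.24. Gli1 with Ihh gave r between -0.63 in WT/NTZ and 0.46 in KO/NTZ libraries, and no Pearson correlation passed the adjustment.

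The genes whose levels ran closest to each member over all 44 libraries, after group means were removed, are given as a description. Ihh ran closest to Por (r = 0.87), Grn (0.86) and Abhd14b (0.86), and Shh to Sectm1b (0.81), Gcnt3 (0.80) and Slc22a23 (0.79). Ptch1 ran closest to Zeb2 (0.84), Tgfbr3 (0.84) and Pdgfra (0.82), and Hhip to Lamb1 (0.75), Pdgfra (0.73) and Ltbp4 (0.72). Smo ran closest to Cobl (0.77), Gli1 to Thbs3 (0.67), Gli2 to Fgfr1 (0.78) and Gli3 to Rbms1 (0.72). All libraries share the length slopes described above, which were not removed from these values.

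The promoters of Ihh, the member that rose, and Ptch1, a direct Gli target, are shown because the Gli consensus GACCACCCA was searched there, on both strands, in the 250 bases before the RefSeq start site (GRCm38.p6). RefSeq windows were found for Ihh, Ptch1, Hhip, Smo, Gli2 and Gli3, and none was available for Shh and Gli1. None of the 6 windows held the motif exactly or with up to 1 mismatch, and 0.225% of 32851 promoter windows of the same length held it exactly and 5.79% with up to 1 mismatch. Neither sequence therefore has a part in capitals. Their positions, on the minus strand, are chr1:74951673-74951922 for Ihh and chr13:63565736-63565985 for Ptch1. The Ptch1 window lies within the annotated gene, which begins on this strand at 63573598, so starts further upstream were not searched. The Gli3 window also lies within its annotated gene.
Ihh: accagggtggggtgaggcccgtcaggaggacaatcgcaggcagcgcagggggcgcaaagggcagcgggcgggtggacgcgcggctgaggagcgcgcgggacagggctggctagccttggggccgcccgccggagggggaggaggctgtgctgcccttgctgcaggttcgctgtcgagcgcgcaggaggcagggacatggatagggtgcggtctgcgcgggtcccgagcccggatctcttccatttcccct
Ptch1: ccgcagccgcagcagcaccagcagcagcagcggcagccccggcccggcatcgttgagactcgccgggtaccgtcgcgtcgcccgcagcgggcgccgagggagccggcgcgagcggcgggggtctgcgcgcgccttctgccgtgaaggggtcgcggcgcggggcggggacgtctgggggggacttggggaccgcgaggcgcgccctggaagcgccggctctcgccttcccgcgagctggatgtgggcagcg
The absence of these letters describes the windows only.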

How the data were processed

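RNA from the gastric corpus was prepared with a stranded mRNA kit and sequenced as single reads of 75 cycles. Per the labels, the authors estimated transcript abundance with kallisto 0.42.4 on GRCm38 and tested it with sleuth, whose repeated quantifications were not used here. The authors deposited these values as estimated counts, not normalized, for 94080 transcripts in 44 libraries. Each column was matched to a library by its title. Transcripts were matched to GENCODE vM21 (92372 matched to 31484 genes, and the 1708 unmatched held 0.329% to 1.30% of counts), summed per gene and rounded to whole numbers. Genes with enough counts (filterByExpr, minimum 10) were tested with edgeR 4.0.16 (R 4.3.3, TMM, quasi-likelihood F-test, a mean per group over all 44 libraries, Benjamini-Hochberg over 14901 genes, threshold 0.05). SE is the absolute log2 fold change divided by the square root of F, and 95% intervals of folds follow from it. CPM used TMM library sizes, and TPM divided counts by transcript length.

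Alternatives used DESeq2 1.42.0, limma 3.58.1, RLE scaling, no filter, other sets of libraries and other sums over transcripts. After the data were seen, 2 length adjustments were added: removing the trend of each library on log2 transcript length through offsets, and its slope as a covariate (this fit and the unadjusted one also without 1 KO/PEG library), with the mean transcript length weighted by counts. The fits were tested on simulated data. Correlations used log2 CPM with a prior count of 2 and permutation p-values.

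Groups came from the labels. The pair of WT/PEG libraries with animal number 172 differed by more than sampling noise (chi-square per degree of freedom 17.2, rank 11 of 55 WT/PEG pairs, counted from the most alike). They were kept apart, although this value cannot tell separate mice from repeated preparations of a mouse. A fit with the pair summed is among the alternatives. Cblif was matched as Gif. Members and lists were chosen with earlier results of these data known. Named outside the members were, per pathway list, up to 3 called genes that changed most with the knockout under PEG, and the genes most like each member. Genes called in KO/NTZ versus KO/PEG, as counted or under a length adjustment, were named too. Also named were the Gli target genes that rose with the knockout (Foxl1 and Mycn), the untested Boc and Dhh, and some cell markers. The Gli target genes Bcl2, Ccnd1 and Snai1 were named because only a length adjustment called them in KO/PEG versus WT/PEG. Ptch1, Gli1 and others with uncounted annotated transcripts (7 of 10 and 1 of 5 counted) rest on those counted. Libraries have unknown duplication, so counts bound counting error only.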

Additional observations from a re-analysis of the deposited data

How the results depend on the processing

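The members' 40 log2 fold changes were recomputed under 16 alternatives, 480 values in all. Of the values that had passed the test, 131 kept direction and call, 19 kept direction and lost the call and 8 changed sign. Of those that had not, 289 stayed below the threshold with the same sign, 2 passed it and 31 changed sign, all but 1 of these without passing it. The number of called members moved by over 1.5 times under the length adjustments alone: with the trend removed it was 1 (Gli3) for KO/NTZ versus KO/PEG and 2 (Ihh and Smo) for KO/NTZ versus WT/NTZ, and with the slope as a covariate it was 1 (Ihh) in KO/PEG versus WT/PEG and 1 (Ihh) in KO/NTZ versus WT/NTZ. Of all genes, the fit with the trend removed called 661 higher and 604 lower in KO/NTZ versus KO/PEG. In KO/NTZ versus WT/NTZ it called 5133 higher and 4913 lower. Without the KO/PEG library whose slope lies in the WT range, 7 members were called in KO/PEG versus WT/PEG as counted and 1 (Ihh) with the slope as a covariate, where Shh was 0.59, Ptch1 0.40 and Hhip 0.19. This last fit called 2376 of all genes higher and 2089 lower.
The other sign changes are on the log2 scale. For Shh in WT/NTZ versus WT/PEG the values were 0.0154 with RLE scaling, 0.0158 with DESeq2, 0.0107 with limma, 0.0241 with only the groups compared, 0.0197 with the WT/PEG pair that shares an animal number summed, 0.000199 without the KO pair that shares one and 0.00306 with protein coding transcripts only. For Ptch1 in KO/NTZ versus KO/PEG they were 0.0493 with limma, 6.56e-05 with the WT/PEG pair that shares an animal number summed, 0.0120 without the KO pair that shares one and 0.0323 with protein coding transcripts only, where Hhip gave -0.12. With animals numbered below 100 alone, Gli1 was -0.0111 in KO/NTZ versus WT/NTZ. With the transcript of the highest mean count alone, Smo was -0.0078 in KO/PEG versus WT/PEG, and in KO/NTZ versus WT/NTZ Gli1 was -0.0242 and Hhip 0.0738, the latter resting on Hhip-202.

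With the length trend removed, Gli2 was 0.10 and Ptch1 0.12 in KO/NTZ versus KO/PEG. In WT/NTZ versus WT/PEG, Gli3 was 0.0206, Ptch1 0.0419 and Shh 0.0163, and in KO/NTZ versus WT/NTZ Smo was 0.23. With the slope as a covariate, Ptch1 was 0.20 and Shh 0.0839 in KO/PEG versus WT/PEG, and Gli2 0.0686 and Ptch1 0.0894 in KO/NTZ versus KO/PEG. The same fit gave 0.0116 for Gli2, 0.0308 for Gli3, 0.0888 for Ptch1 and 0.11 for Shh in WT/NTZ versus WT/PEG. In KO/NTZ versus WT/NTZ it gave -0.0895 for Gli1, 0.0832 for Gli3, 0.20 for Ptch1, 0.41 for Shh and 0.13 for Smo, and the netazepide difference of Ihh was 0.11. The cause of these changes was not tested.

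Counts over all genes moved with the fit in every comparison. As counted, 5587 were called higher and 5538 lower in KO/PEG versus WT/PEG, and 2430 and 2451 with the slope as a covariate. The same fits gave 5307 and 5484, and 1630 and 1514, in KO/NTZ versus WT/NTZ. For the difference of the netazepide effect they gave 36 and 107, and 844 and 617. In WT/NTZ versus WT/PEG edgeR called 153 genes higher and 1 lower, limma 2, edgeR with only the groups compared 0 (2118 at an unadjusted p under 0.05), and with animals numbered 100 or above alone 598 higher and 294 lower. In KO/NTZ versus KO/PEG 442 were called higher and 387 lower, against 146 higher with only the groups compared, and 24 higher and 77 lower in KO animals numbered below 100.

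No paired analysis was possible because the groups compared share at most 1 animal number. Of the members, depth limits Gli2 most, since single libraries lay under the level of 3 counts.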
